A study of Rattus norvegicus with 16 samples.

Results

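The genes of iron homeostasis were followed in rat liver in sepsis under 2 anesthetics. The members were chosen by symbol from a list of 10 (Hamp, Bmp6, Hfe, Hfe2, Tf, Tfrc, Tfr2, Fth1, Ftl1 and Slc40a1), of which 9 were found among the 17055 gene symbols counted in each library. Ftl1, a symbol of ferritin light chain, was the absent entry. Reads for ferritin light chain stood under the older symbol Ftl, which was added after the symbols had been read. Ftl is given beside the members and is counted neither among the 9 nor among the other iron genes.

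The rats were male Sprague-Dawley animals aged 10 weeks. Isoflurane-Sepsis rats were induced and maintained with isoflurane and received cecal ligation and puncture (CLP), a model of abdominal sepsis, and the isoflurane control rats had the celiotomy without CLP. Propofol-Sepsis and propofol control rats received ketamine and xylazine for induction and propofol for maintenance, with and without CLP in the same way. Livers were taken 8 h after the celiotomy, and liver samples of 3 rats were pooled for each library, so that 48 rats, 12 per group, gave 16 libraries, 4 per group. Library numbers run from 1 to 4 in Isoflurane-Sepsis, 5 to 8 in isoflurane control, 9 to 12 in Propofol-Sepsis and 13 to 16 in propofol control. The error given with a mean is the SD over 4 pools and not over single rats, and every rat was anesthetized and operated on, so no group shows the liver of an untreated animal.

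The liver sets the iron level of the body through hepcidin, a peptide hormone encoded by Hamp that hepatocytes release into the blood. Hepcidin binds ferroportin, the iron exporter encoded by Slc40a1, and leads to its degradation, so that less iron leaves macrophages, hepatocytes and the gut. Hamp transcription is driven by an arm that senses iron, in which BMP6 from the liver endothelium signals through SMAD proteins with hemojuvelin (Hfe2) as co-receptor and with HFE and transferrin receptor 2 as partners, and by an arm that senses inflammation, in which interleukin-6 signals through JAK kinases and STAT3. Inside cells, the iron regulatory proteins (Aco1 and Ireb2) bind mRNA elements that stabilize the transferrin receptor message and hold back ferritin translation when iron is scarce.

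Reads on genes numbered between 14199422 and 49937173 per library. Levels are given as CPM, read counts divided by the library's reads on genes and brought to a common total, after TMM scaling, a correction for differences in library composition. Marker genes listed for hepatocytes were abundant in all 16 libraries. Their summed level was 133999 to 150243 CPM in Isoflurane-Sepsis and 149790 to 158267 CPM in isoflurane control, and 115221 to 121719 CPM in Propofol-Sepsis and 115841 to 125701 CPM in propofol control, so that both isoflurane groups lay above both propofol groups. The summed level of 9 neutrophil and monocyte markers was 36.5 to 116 CPM in Isoflurane-Sepsis against 17.5 to 20.4 CPM in isoflurane control, and 36.3 to 53.5 CPM in Propofol-Sepsis against 18.3 to 25.1 CPM in propofol control. Of these, 4 of the 6 tested rose in sepsis under each anesthetic, Ly6c had 0 reads in every library, and the neutrophil granule genes Mpo and Elane reached at most 0.0604 and 0.0977 CPM. The summed level of 9 Kupffer cell and macrophage markers overlapped between sepsis and control under isoflurane (416 to 557 against 369 to 454 CPM, 5 of 9 higher and 1 lower by the test) and under propofol (358 to 440 against 412 to 475 CPM), and so did that of 8 erythroid and blood genes. In whole liver, fewer cells of a type cannot be told apart from less RNA per cell.

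Hepcidin mRNA was higher in Isoflurane-Sepsis than in isoflurane control, and its level in both propofol groups lay near that of Isoflurane-Sepsis. The start of the gene is shown first because hepcidin is the output of the pathway and carries in a short stretch the letters that both arms are known to read. The sequences are the 250 bases before the gene start in the RefSeq annotation of rat build GRCr8, read 5′ to 3′ on the strand of the gene. Capitals mark the STAT-type letters TTCNNNGAA and the BMP-responsive letters GGCGCC, each of which reads the same on the other strand. The Hamp window is chr1:95300272-95300521 on the minus strand, and that of Hfe2, listed in RefSeq as Hjv and shown for comparison as the member that fell most under propofol, is chr2:186754551-186754800 on the plus strand.
Hamp: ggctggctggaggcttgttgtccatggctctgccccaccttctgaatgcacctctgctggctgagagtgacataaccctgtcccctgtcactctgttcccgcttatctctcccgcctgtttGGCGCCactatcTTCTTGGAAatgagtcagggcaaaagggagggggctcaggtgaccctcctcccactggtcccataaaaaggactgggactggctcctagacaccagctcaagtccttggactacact
Hfe2: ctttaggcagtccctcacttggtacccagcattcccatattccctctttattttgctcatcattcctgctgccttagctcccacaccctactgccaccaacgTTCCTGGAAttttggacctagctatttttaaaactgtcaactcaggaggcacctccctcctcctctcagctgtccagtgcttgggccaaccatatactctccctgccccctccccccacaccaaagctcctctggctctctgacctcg
In the Hamp window the BMP-responsive letters began 129 bases and the STAT-type letters 117 bases before the start, with 6 bases between them. The Hfe2 window held the STAT-type letters, beginning 148 bases before its start, and no BMP-responsive letters. Of 33469 promoter windows of this length, 7.67% held the STAT-type letters, 8.69% the BMP-responsive letters and 0.379% both. Windows were found for 7 of 10 genes (the 9 members and Ftl), 2 with STAT-type letters (Hamp and Hfe2) and 2 with BMP-responsive letters (Hamp and Tfrc). A match of letters describes the sequence and is not a measured binding site.

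Hamp stood at 777, 1045, 1160 and 465 CPM in Isoflurane-Sepsis libraries 1 to 4 and at 376, 399, 373 and 220 CPM in isoflurane control libraries 5 to 8. Every septic library was above every control library, although library 4 lay close to the controls. In the propofol arm Hamp was 984, 665, 1449 and 1081 CPM in Propofol-Sepsis and 897, 1262, 948 and 879 CPM in propofol control. These groups overlapped, with the lowest and the highest library both among the septic ones. The group means were 862 ± 310 CPM in Isoflurane-Sepsis, 342 ± 82.4 CPM in isoflurane control, 1045 ± 323 CPM in Propofol-Sepsis and 996 ± 179 CPM in propofol control (SD, n = 4 each). Under isoflurane Hamp rose 2.53-fold in the fit, with a log2 fold change of 1.34 ± 0.294 (SE) and an adjusted p of 0.00541 in edgeR's quasi-likelihood test, and the exact permutation test on CPM gave 0.0286, the smallest two-sided p that 4 libraries against 4 allow. Under propofol the log2 fold change was 0.06 with a 95% interval from -0.41 to 0.53 and an adjusted p of 0.834 by edgeR, and it was -0.13 without library 11.

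The interaction, which takes the sepsis effect under isoflurane minus that under propofol, was 1.27 ± 0.383 (SE) on the log2 scale for Hamp, with an adjusted p of 0.0772 by edgeR. It therefore missed the threshold of 0.05 and the difference in response was not established in the fit used throughout. DESeq2 gave 1.28 with an adjusted p of 0.023, and edgeR passed the threshold without library 1 (adjusted p = 0.042) or library 4 (adjusted p = 0.029). Between the control groups, Hamp was 1.54 ± 0.179 (SE) log2 units lower under isoflurane than under propofol in edgeR (log2 fold change -1.54, adjusted p = 9.44e-05), with every isoflurane control library below every propofol control library. Between the septic groups the log2 difference was -0.28, with a 95% interval from -0.96 to 0.40 and an adjusted p of 0.521 by edgeR.

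**Figure D1:**
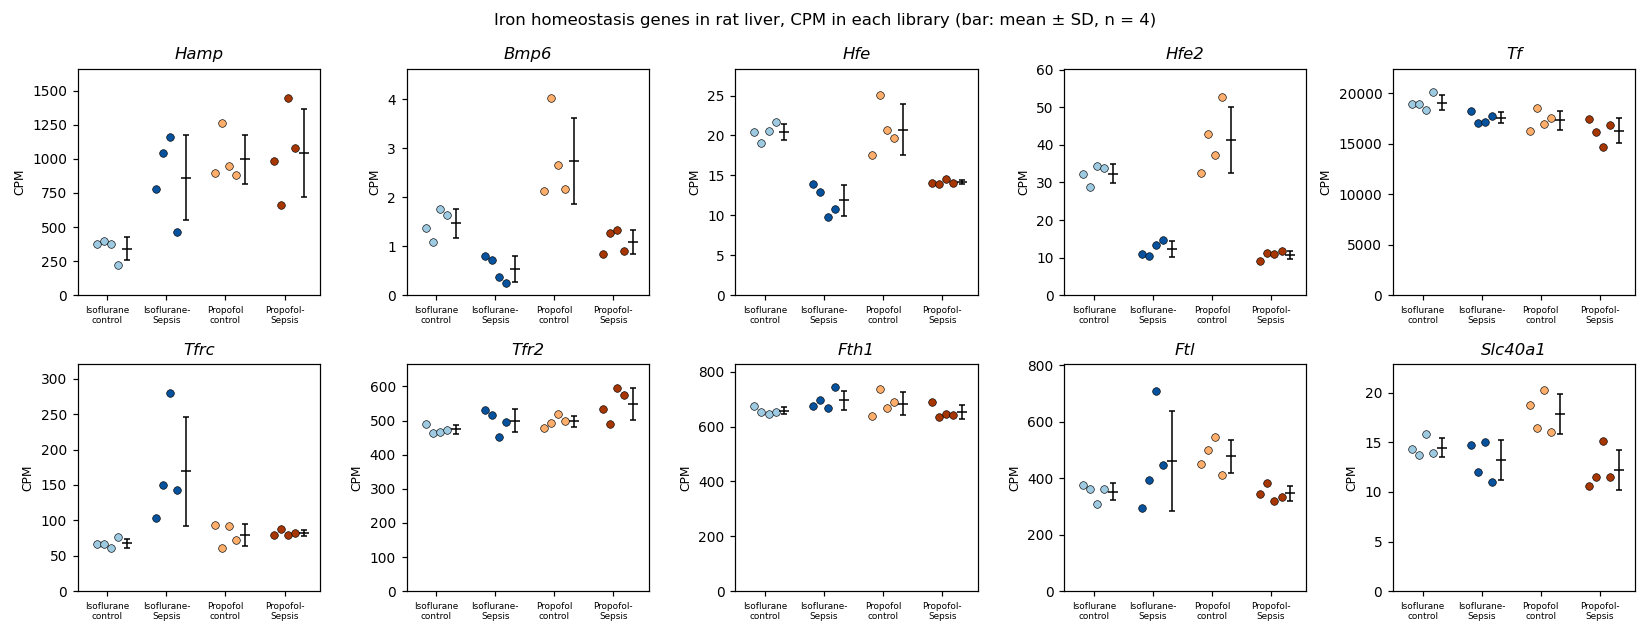
Level of each iron gene in every library, in CPM on a linear axis that starts at 0, with the 4 groups side by side. Points are libraries (pools of 3 rats) and the bar beside them is the mean ± SD (n = 4). Hamp lies between 220 and 399 CPM in isoflurane control and at 465 CPM or above in the other 12 libraries, Tfrc is highest in Isoflurane-Sepsis, and Bmp6, Hfe and Hfe2 are lower in both septic groups than in their controls.

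Of the 4 members that act upstream of hepcidin in the iron-sensing arm, 3 went down in sepsis under both anesthetics, and Tfr2 is described with the transferrin system. Bmp6, Hfe and Hfe2 each fell under isoflurane and under propofol, and for none of them did the effects of sepsis differ between the anesthetics beyond the threshold. Over all members, 5 of 9 passed the test under isoflurane, 2 higher (Hamp and Tfrc) and 3 lower, where 50.0% of all 10361 genes tested did, 25.7% higher and 24.4% lower. Under propofol 4 of 9 passed, all lower (Bmp6, Hfe, Hfe2 and Slc40a1), where 42.1% of 10348 genes did, 20.4% higher and 21.7% lower. Shares of this size lie near the background and say nothing particular of the members as a group. The median log2 fold change of the 9 members was -0.12 under isoflurane, beside 0.0061 over all genes, and -0.09 under propofol, beside -0.0016.

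Hfe2 encodes hemojuvelin, the BMP co-receptor whose loss causes juvenile iron overload. It was 10.9, 10.3, 13.5 and 14.6 CPM in Isoflurane-Sepsis against 32.3, 28.8, 34.4 and 34.0 CPM in isoflurane control. It was 9.15, 11.3, 10.95 and 11.7 CPM in Propofol-Sepsis against 32.4, 43.0, 37.3 and 52.6 CPM in propofol control. All 8 septic libraries lay below 15 CPM and all 8 controls above 28 CPM. Hfe2 fell by 1.39 ± 0.126 (SE) on the log2 scale under isoflurane (adjusted p = 0.000103, edgeR), from a mean of 32.3 ± 2.55 to 12.3 ± 2.05 CPM (SD, n = 4 each). Under propofol it fell by 1.94 ± 0.150 (SE) on the log2 scale (adjusted p = 3.35e-05, edgeR), from 41.3 ± 8.69 to 10.8 ± 1.12 CPM. The fall under propofol was among the steepest in the table: 65 of 10348 genes had a lower log2 fold change. The interaction was 0.55 ± 0.2 (SE), with a 95% interval from 0.12 to 0.97 and an adjusted p of 0.125 by edgeR.

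Bmp6, the BMP ligand that the liver endothelium makes in response to iron, was a weakly expressed gene here, with between 4 and 79 reads per library. Its level was 0.80, 0.71, 0.36 and 0.24 CPM in Isoflurane-Sepsis against 1.36, 1.09, 1.77 and 1.65 CPM in isoflurane control. In the propofol arm it was 0.85, 1.27, 1.34 and 0.91 CPM in sepsis against 2.12, 4.02, 2.67 and 2.16 CPM in control. Within each anesthetic every septic library was below every control library. The log2 fold change was -1.47 ± 0.332 (SE) under isoflurane (adjusted p = 0.00629, edgeR) and -1.34 ± 0.266 (SE) under propofol (adjusted p = 0.00322, edgeR). The interaction was -0.14, with a 95% interval from -1.06 to 0.79, the widest of the members' interactions. The summed level of 6 sinusoidal endothelial markers was 142 to 161 CPM in Isoflurane-Sepsis against 187 to 241 CPM in isoflurane control, and 191 to 204 against 216 to 264 CPM in the propofol arm. Of these markers 3 of 6 were lower and none higher under isoflurane, and 2 of 6 were lower and 1 higher under propofol, and their part in the Bmp6 result was not tested.

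Hfe, the MHC class I-like protein whose mutation underlies the common form of hereditary hemochromatosis, changed less. It was 13.9, 12.95, 9.79 and 10.8 CPM in Isoflurane-Sepsis against 20.5, 19.1, 20.5 and 21.7 CPM in isoflurane control, and 14.01, 13.97, 14.5 and 14.02 CPM in Propofol-Sepsis against 17.5, 25.04, 20.7 and 19.6 CPM in propofol control. The groups did not overlap under either anesthetic, as was so for 48.7% of all genes under isoflurane and 42.2% under propofol. Hfe was 1.72-fold lower in sepsis under isoflurane (log2 fold change -0.78 ± 0.11, SE, adjusted p = 0.000641, edgeR) and 1.47-fold lower under propofol (-0.56 ± 0.105, SE, adjusted p = 0.00236). The interaction was -0.23, with a 95% interval from -0.57 to 0.10 and an adjusted p of 0.381.

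In the transferrin system the receptor rose under isoflurane and the carrier and the sensing receptor did not pass the test. Tfrc encodes transferrin receptor 1, which takes up iron-loaded transferrin. It was 104, 150, 280 and 142 CPM in Isoflurane-Sepsis against 66.4, 65.9, 61.3 and 76.5 CPM in isoflurane control. It was 79.9, 88.4, 79.8 and 81.9 CPM in Propofol-Sepsis against 93.0, 60.4, 91.5 and 72.2 CPM in propofol control. The 4 Isoflurane-Sepsis libraries were above all other 12, library 3 most of all, and the propofol groups overlapped. Under isoflurane Tfrc rose 2.52-fold, with a log2 fold change of 1.33 ± 0.276 (SE) and an adjusted p of 0.00412 by edgeR, and without library 3 the log2 fold change was 0.96 (adjusted p = 0.0011). Under propofol it was 0.05, with a 95% interval from -0.23 to 0.33 and an adjusted p of 0.756.

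Tfrc was the 1 member of 9 whose response to sepsis differed between the anesthetics, with an interaction of 1.26 ± 0.315 (SE) log2 units and an adjusted p of 0.0463 by edgeR, where 2.72% of 10621 genes passed, 1.66% higher and 1.06% lower. The call was close to the threshold. It held without library 1, 3, 4 or 10 and was lost when any of the other 12 libraries was left out (adjusted p between 0.0562 and 0.0966, log2 values over all 16 such fits between 0.91 and 1.44), with limma-voom (adjusted p = 0.0599) and with no limit on low counts (adjusted p = 0.0588). Between the septic groups Tfrc was 2.04-fold higher under isoflurane (log2 difference 1.03 ± 0.264, SE, adjusted p = 0.0302, edgeR), a call lost without library 2 (adjusted p = 0.0513), 9 (0.0836), 11 (0.0868) or 12 (0.0877). In the septic libraries 1 to 4 the neutrophil and monocyte markers summed to 36.5, 72.9, 116 and 100.2 CPM, so library 3 was highest in these markers as well as in Tfrc, and the part of these cells in the Tfrc result was not tested.

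Tf, the transferrin that hepatocytes secrete, was among the abundant transcripts and spanned 14662 to 20126 CPM over all libraries. Its mean was 17564 ± 539 CPM in Isoflurane-Sepsis and 19062 ± 764 CPM in isoflurane control, a log2 fold change of -0.12 with an adjusted p of 0.124 by edgeR. The groups did not overlap, and scaling by library totals alone gave -0.18 with an adjusted p of 0.0268. Under propofol the log2 fold change of Tf was -0.09, with a 95% interval from -0.24 to 0.05. Tfr2, the transferrin receptor that takes part in iron sensing, lay between 453 and 597 CPM in the 16 libraries. Its log2 fold change was 0.08 (95% interval -0.07 to 0.23) under isoflurane and 0.13 (-0.02 to 0.29) under propofol, and neither passed the test by edgeR. Without library 10 the propofol value was 0.19 with an adjusted p of 0.0284.

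Of the ferritin chains that store iron, the heavy chain passed the test in neither arm. Fth1, ferritin heavy chain, ranged from 633 to 745 CPM over all 16 libraries, a ratio of 1.18 between the highest and the lowest, the narrowest range of the 9 members. The log2 fold change of Fth1 was 0.08 (95% interval -0.06 to 0.23) under isoflurane and -0.07 (-0.21 to 0.07) under propofol. Ftl, ferritin light chain, was 294, 392, 709 and 445 CPM in Isoflurane-Sepsis against 375, 362, 307 and 363 CPM in isoflurane control, and 345, 384, 321 and 335 CPM in Propofol-Sepsis against 449, 502, 546 and 412 CPM in propofol control. The isoflurane groups overlapped, with library 3 far above and library 1 below all its controls, and in the propofol arm all septic libraries were below all controls. Ftl fell by 0.47 ± 0.0941 (SE) on the log2 scale under propofol (adjusted p = 0.00331, edgeR), a call lost when all 16 libraries were fitted together (adjusted p = 0.0635). Under isoflurane the log2 fold change of Ftl was 0.40 (95% interval -0.15 to 0.94, adjusted p = 0.198), and 0.56 without library 1 (adjusted p = 0.0388). The interaction for Ftl was 0.85 ± 0.267 (SE) with an adjusted p of 0.0839, which DESeq2 put at 0.0359 and edgeR without library 1 at 0.0096. Ferritin genes have processed copies elsewhere in the genome, and no source used here says how reads that fit several places were counted, so values of Fth1 and Ftl are uncertain to that extent.

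Ferroportin mRNA fell in sepsis under propofol. Slc40a1 was 10.6, 11.5, 15.1 and 11.5 CPM in Propofol-Sepsis against 18.7, 16.4, 20.3 and 16.1 CPM in propofol control, with no overlap. It was 14.7, 12.05, 15.1 and 10.995 CPM in Isoflurane-Sepsis against 14.3, 13.7, 15.9 and 13.98 CPM in isoflurane control, which overlapped. Under propofol the log2 fold change was -0.56 ± 0.122 (SE) with an adjusted p of 0.00506 by edgeR, and under isoflurane -0.12 (95% interval -0.39 to 0.14, adjusted p = 0.408). The interaction was 0.43 ± 0.176 (SE) with an adjusted p of 0.165, so a difference between the anesthetics was not established for Slc40a1 either. The gene is known to be expressed in Kupffer cells as well as hepatocytes. The summed Kupffer cell and macrophage markers overlapped between the propofol groups (358 to 440 CPM in sepsis against 412 to 475 CPM in control). By edgeR 1 of 9 was higher (Marco, log2 fold change 0.42, adjusted p = 0.0124) and 1 of 9 lower (Clec4f, -0.82, adjusted p = 0.000387). The part of these cells in the Slc40a1 result was not tested.

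**Figure D2:**
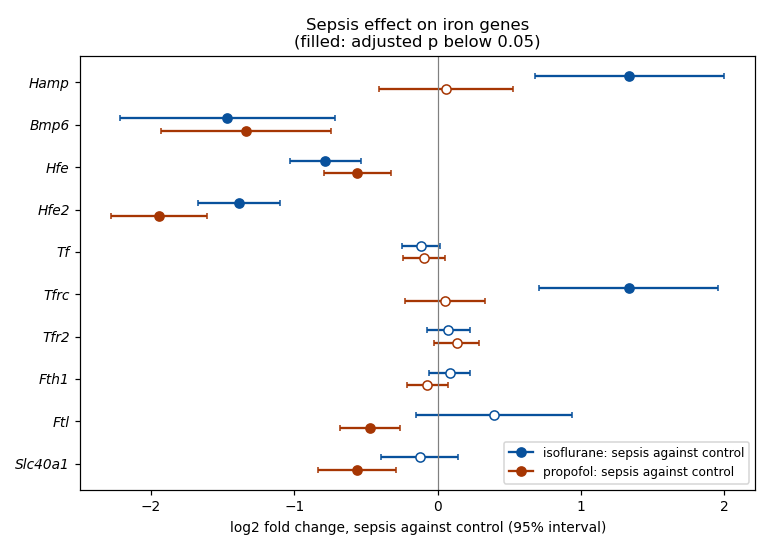
Log2 fold change of sepsis against control for each iron gene, from edgeR, with its 95% interval; blue is isoflurane and brown propofol, and filled points have an adjusted p below 0.05. Bmp6, Hfe and Hfe2 lie left of 0 in both arms, Hamp (1.34) and Tfrc (1.33) lie right of 0 under isoflurane with propofol values of 0.06 and 0.05, and Ftl, which is not one of the 9 members, is drawn beside Fth1.

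Without sepsis, the level of several members differed between the anesthetics. In the control comparison, isoflurane against propofol, 5 of 9 members passed the test, 1 higher and 4 lower, where 43.3% of 10314 genes did, 21.6% higher and 21.7% lower. The groups did not overlap for 3 members (Hamp, Bmp6 and Slc40a1), all lower, as was so for 40.3% of all genes, 20.0% of all genes being lower. Hamp (above) and Bmp6 were the members that also passed when all 16 libraries were fitted together. Bmp6 was 1.47 ± 0.302 CPM in isoflurane control and 2.74 ± 0.886 CPM in propofol control (SD, n = 4 each), a log2 difference of -0.87 ± 0.229 (SE) with an adjusted p of 0.0108 by edgeR and no overlap. Slc40a1 was lower under isoflurane (log2 difference -0.31, adjusted p = 0.0161), a call lost without library 8 (adjusted p = 0.0513). Hfe2 was lower (-0.35, adjusted p = 0.0428) and Tf higher (0.14, adjusted p = 0.0407), each a call lost in 6 of 8 fits with a library removed, with adjusted p between 0.0568 and 0.114 for Hfe2 (without 5, 6, 7, 8, 14 or 16) and between 0.0598 and 0.123 for Tf (without 5, 6, 8, 13, 15 or 16). With library totals in place of TMM the median over all genes was -0.15 and the log2 difference of Tf was -0.0055. Ftl was also lower under isoflurane (-0.44 ± 0.0891, SE, adjusted p = 0.0027), a call lost with all 16 libraries in 1 fit (adjusted p = 0.098). The hepatocyte markers moved with this comparison, with sums that did not overlap (above) and 4 of 7 higher and none lower under isoflurane, and 1 of 6 sinusoidal endothelial markers was lower and none higher. The part of these markers in the differences of Hamp, Bmp6, Hfe2 and Tf was not tested.

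Between the septic groups, 1 of 9 members passed (Tfrc, above), where 19.3% of 10272 genes did, 10.6% higher and 8.66% lower. Bmp6 was lower in every Isoflurane-Sepsis library than in every Propofol-Sepsis library, with a log2 difference of -1.03 ± 0.372 (SE) and an adjusted p of 0.0761 by edgeR, and passed with all 16 libraries in 1 fit (0.0279), without library 1 (0.0415) and with library totals (0.0458). The sinusoidal endothelial markers, whose sums are given with Bmp6 above, also did not overlap between the septic groups, with 4 of 6 lower and none higher under isoflurane, and 3 of 7 hepatocyte markers were higher and none lower. Their part in these values was not tested. Hfe also did not overlap between the septic groups (log2 difference -0.25, adjusted p = 0.146), as was so for 25.6% of all genes. In both comparisons the anesthetic and the induction drugs cannot be told apart. The sample labels name no batch, so a batch that ran with the anesthetic could not be told apart either. Both comparisons use the same libraries as the comparisons of sepsis with control, so they are not separate evidence on those values.

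The other genes of iron metabolism were counted from a list of 94, of which 87 were among the gene symbols. Under isoflurane 52 of 80 tested passed, 28 higher and 24 lower, with a median log2 fold change of 0.12. Under propofol 49 of 79 passed, 22 higher and 27 lower, with a median of -0.15. Beside the shares of all genes given above (50.0% and 42.1%), these were 65.0% and 62.0% of the list. The lists were chosen with earlier results of these data known and were not tested as sets. The shares given here and for each list below are therefore a description.

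In the list of the BMP and SMAD arm, 7 of 19 genes passed under isoflurane, 6 higher and 1 lower, and 9 of 18 under propofol, 4 higher and 5 lower. These were 36.8% and 50% of the list, beside 50.0% and 42.1% of all genes. The share lay below that of all genes under isoflurane and above it under propofol, with only 19 and 18 genes tested. The largest value was that of Inhbb, the subunit of activin B, which can induce hepcidin in inflammation. Inhbb was 28.3, 25.5, 34.1 and 34.5 CPM in Isoflurane-Sepsis against 12.6, 12.97, 8.64 and 7.89 CPM in isoflurane control, and 17.2, 24.5, 15.9 and 16.02 CPM in Propofol-Sepsis against 4.57, 1.46, 3.48 and 3.70 CPM in propofol control. It rose in both arms, by 1.55 ± 0.188 (SE) log2 units under isoflurane (adjusted p = 0.000329, edgeR) and 2.47 ± 0.268 (SE) under propofol (adjusted p = 0.000145). Bmpr2, a type II BMP receptor, rose as well, by 0.90 and 0.84 log2 units (adjusted p = 0.000287 and 0.000355).

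Target genes of BMP signaling differed from one another. Id3, a direct SMAD target, was 25.99 ± 3.66 CPM in Isoflurane-Sepsis against 16.4 ± 0.962 CPM in isoflurane control and 16.5 ± 0.941 CPM in Propofol-Sepsis against 18.2 ± 3.45 CPM in propofol control (SD, n = 4 each). It rose by 0.67 log2 units under isoflurane (adjusted p = 0.00172, edgeR), and its value under propofol was -0.15 (adjusted p = 0.358). The interaction for Id3 was 0.81 ± 0.171 (SE) with an adjusted p of 0.0292, a call lost without library 3, 5, 6, 7, 8, 9 or 12 (adjusted p between 0.0524 and 0.0668). Id1, another SMAD target that responds to liver iron, rose by 0.35 log2 units under isoflurane (adjusted p = 0.0367), a call lost without library 2, 3, 4, 6, 7 or 8 (adjusted p between 0.0516 and 0.102), and its value under propofol was 0.07 (adjusted p = 0.713). Smad7, the inhibitory SMAD, did not pass in either arm (0.13 and -0.32). Tmprss6, which encodes matriptase-2, the hepatocyte protease that cleaves hemojuvelin, was 426 ± 50.2 CPM in Isoflurane-Sepsis and 291 ± 12.7 CPM in isoflurane control (SD, n = 4 each). It rose by 0.55 ± 0.0966 (SE) log2 units under isoflurane (adjusted p = 0.00185), and under propofol its value was 0.19 (95% interval 0.00 to 0.37, adjusted p = 0.0973, and 0.25 with an adjusted p of 0.0269 without library 11).

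In the list of the interleukin-6 and STAT3 arm, 8 of 9 genes passed under isoflurane, 6 higher and 2 lower, and 6 of 8 under propofol, 4 higher and 2 lower. That was 88.9% and 75% of the list, where 50.0% and 42.1% of all genes passed. Il6 itself had 29, 31, 45 and 95 reads in Isoflurane-Sepsis and 1, 1, 1 and 4 reads in isoflurane control, which is 1.45 to 5.74 CPM against 0.0465 to 0.0833 CPM. It rose under isoflurane (adjusted p = 0.00025, edgeR). In the propofol arm Il6 had 11, 21, 17 and 17 reads in sepsis and 1, 2, 0 and 0 reads in control. It did not pass the filter on low counts there, which takes counts relative to library size, and so was not tested. Jak2, a kinase of the interleukin-6 receptor, rose from 26.9 ± 1.14 to 76.4 ± 9.06 CPM under isoflurane and from 18.4 ± 2.33 to 62.3 ± 6.75 CPM under propofol (SD, n = 4 each, adjusted p = 1.75e-05 and 8.56e-06). Creb3l3, a hepatocyte transcription factor that can act on the hepcidin promoter, fell by 1.28 and 1.00 log2 units (adjusted p = 0.000603 and 6.44e-05).

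Cebpa, a transcription factor that binds the hepcidin promoter, was 78.3, 89.6, 163 and 75.7 CPM in Isoflurane-Sepsis against 45.1, 48.5, 37.0 and 51.4 CPM in isoflurane control. It was 60.1, 55.4, 44.2 and 49.9 CPM in Propofol-Sepsis against 58.0, 56.5, 50.4 and 54.0 CPM in propofol control. The isoflurane groups did not overlap and the propofol groups did, as for Hamp. For Cebpa it was Isoflurane-Sepsis that stood apart, at 75.7 CPM or above. Isoflurane control lay between 37.0 and 51.4 CPM, propofol control between 50.4 and 58.0 CPM and Propofol-Sepsis between 44.2 and 60.1 CPM. Cebpa rose by 1.17 ± 0.252 (SE) log2 units under isoflurane (adjusted p = 0.00501, edgeR), and its value under propofol was -0.07 (adjusted p = 0.588). The interaction was 1.22 ± 0.279 (SE) with an adjusted p of 0.0366, a call lost without library 5, 6, 7, 8, 9, 11, 12, 13, 14 or 15 (adjusted p between 0.0524 and 0.0772). Jak1 moved in opposite directions, by 0.24 log2 units under isoflurane (adjusted p = 0.0339) and -0.23 under propofol (adjusted p = 0.011), and its interaction of 0.46 ± 0.0905 (SE) had an adjusted p of 0.022. The Jak1 call under isoflurane was lost without library 3, 5, 6, 7 or 8 (adjusted p between 0.0667 and 0.0904) and the interaction without library 6 (0.0527) or 12 (0.0514).

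**Figure D3:**
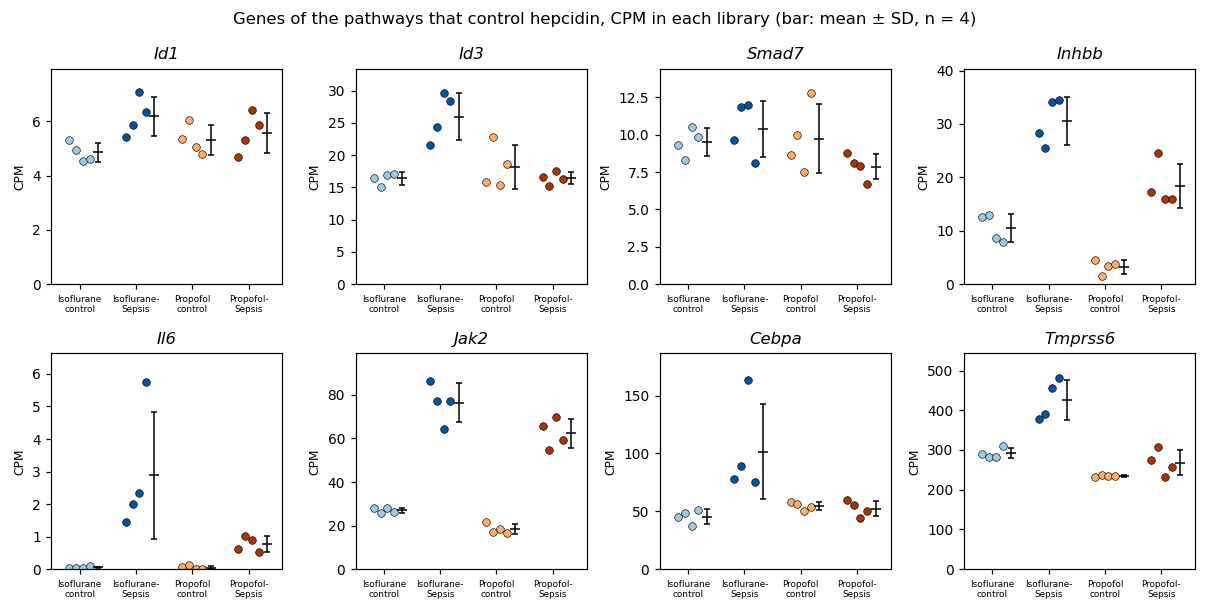
Level of genes that act on hepcidin transcription or its upstream signals, in CPM on linear axes that start at 0, in every library of the 4 groups; the bar is the mean ± SD (n = 4). Inhbb and Jak2 are higher in sepsis in both arms, Cebpa stands apart in Isoflurane-Sepsis (75.7 to 163 CPM against 37.0 to 60.1 CPM in the other 12 libraries), and Smad7 overlaps between all groups.

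Genes of iron uptake, binding and reduction passed with 12 of 16 under isoflurane, 10 higher and 2 lower, and 13 of 17 under propofol, 10 higher and 3 lower. That was 75% and 76.5% of the list, where 50.0% and 42.1% of all genes passed. Lcn2, lipocalin 2, which sequesters the siderophores by which bacteria collect iron, was 159 ± 25.8 CPM in isoflurane control and 1460.2 ± 353 CPM in Isoflurane-Sepsis, and 474 ± 113 CPM in propofol control and 2247 ± 934 CPM in Propofol-Sepsis (SD, n = 4 each). It rose by 3.20 and 2.24 log2 units (adjusted p = 1.82e-05 and 0.000421, edgeR). Neutrophils also make Lcn2, their markers rose in both arms as given above, and their part in this result was not tested. Slc39a14, the zinc and iron importer ZIP14, rose by 0.35 and 0.49 log2 units (adjusted p = 0.0024 and 0.000289). The metalloreductases Steap2 and Steap4 rose in both arms, Steap2 by 1.74 and 1.14 and Steap4 by 0.83 and 1.69 log2 units (adjusted p between 0.000138 and 0.0138).

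Among regulatory proteins, ferritin turnover and chaperones, 7 of 7 passed under isoflurane, 5 higher and 2 lower, and 5 of 7 under propofol, 3 higher and 2 lower. Of all genes, 50.0% and 42.1% passed. Aco1 encodes iron regulatory protein 1, which is the cytosolic aconitase when it carries an iron-sulfur cluster. It was 40.5, 40.5, 30.5 and 28.6 CPM in Isoflurane-Sepsis against 88.4, 89.7, 96.8 and 99.4 CPM in isoflurane control, and 54.3, 55.8, 51.0 and 51.6 CPM in Propofol-Sepsis against 91.8, 111, 123 and 98.7 CPM in propofol control. It fell by 1.42 and 1.00 log2 units (adjusted p = 7.6e-05 and 6.44e-05, edgeR). Ireb2, iron regulatory protein 2, which is removed when iron is plentiful, rose by 0.62 and 0.65 log2 units (adjusted p = 0.000538 and 0.00616). Hif1a, the hypoxia-inducible factor subunit, rose by 0.75 log2 units under isoflurane (adjusted p = 0.00318), and under propofol its value was 0.17 (adjusted p = 0.0512, and below 0.05 with RLE size factors, with DESeq2 and without library 10 or 12).

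In the list of heme synthesis and breakdown 9 of 15 genes were lower and 1 higher under isoflurane, and 10 of 15 were lower and none higher under propofol, where 24.4% and 21.7% of all genes were lower. The medians of the list were -0.51 and -0.38 log2 units, and 5 of 15 genes passed in neither direction in each arm. Alas1, the rate-limiting enzyme of heme synthesis in liver, was 75.3, 66.5, 75.8 and 75.4 CPM in Isoflurane-Sepsis against 158, 146, 172 and 159 CPM in isoflurane control. It was 97.1, 86.5, 49.2 and 58.5 CPM in Propofol-Sepsis against 249.8, 259, 348 and 227 CPM in propofol control. Alas1 fell by 1.11 ± 0.0792 (SE) log2 units under isoflurane and by 1.90 ± 0.219 (SE) under propofol (adjusted p = 3.97e-05 and 0.00019, edgeR), with an interaction of 0.78 that did not pass (adjusted p = 0.087, and 0.0359 with DESeq2). Alad, the next enzyme of the pathway, fell by 1.68 and 1.25 log2 units (adjusted p = 0.000106 and 0.000256).

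The gene of the heme list that rose under isoflurane was Hmox1, heme oxygenase 1, which frees iron from heme. It was 375, 1066, 2124 and 592 CPM in Isoflurane-Sepsis against 257, 298, 144 and 320 CPM in isoflurane control, and 249, 339, 205 and 193 CPM in Propofol-Sepsis against 342, 589.9, 802 and 198 CPM in propofol control. Library 3 was the highest for Hmox1, as it was for Tfrc, Ftl and Cebpa. Hmox1 rose by 2.04 ± 0.512 (SE) log2 units under isoflurane (adjusted p = 0.00999, edgeR), and under propofol its value was -0.98 ± 0.371 (SE, adjusted p = 0.0579, with 0.0364 without library 10 and 0.0094 without library 16). The interaction was 3.00 ± 0.68 (SE) with an adjusted p of 0.036, and was lost without library 3, 5, 6, 7, 8, 9, 11, 12, 13, 14 or 15 (adjusted p between 0.0503 and 0.0761) and with limma-voom (0.0556).

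In the list of mitochondrial iron and iron-sulfur cluster genes 8 of 14 were lower and none higher under isoflurane, and 5 of 14 lower and 1 higher under propofol. Over all genes 24.4% and 21.7% were lower, and the medians of the list were -0.36 and -0.20. Fdx1, a ferredoxin, fell by 0.36 log2 units under isoflurane and 0.64 under propofol (adjusted p = 0.0118 and 0.00819, edgeR). Slc25a37, mitoferrin 1, which brings iron into mitochondria, fell by 0.64 log2 units under propofol (adjusted p = 0.0127), and its value under isoflurane was -0.09 (95% interval -0.30 to 0.13). Abcb8 fell by 0.56 log2 units under isoflurane (adjusted p = 0.0298), a call lost without library 3, 4, 5, 6, 7 or 8 (adjusted p between 0.0534 and 0.0723).

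**Figure D4:**
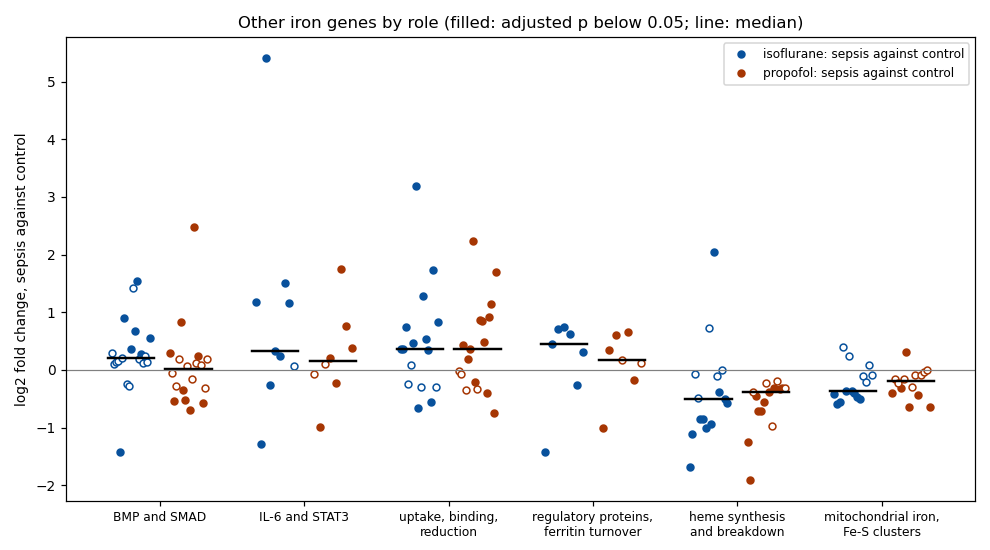
Log2 fold change of sepsis against control (edgeR) for the other iron genes, grouped by role, with isoflurane in blue and propofol in brown. Filled points have an adjusted p below 0.05 and the black line is the median of the tested genes in the list. The medians of the heme list (-0.51 and -0.38) and of the mitochondrial list (-0.36 and -0.20) lie below 0, and Il6 is the highest point.

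Over the 82 other iron genes tested for the interaction, 5 passed (6.1%, beside 2.72% of all genes), 4 with the isoflurane effect above the propofol effect (Id3, Jak1, Cebpa and Hmox1) and 1 with it below. Of the 9 members Tfrc passed, as above. At an unadjusted p below 0.05 by edgeR, 4 of 9 members did, beside 24 of the 82 other iron genes. The share of all genes at that looser limit was not counted, so the 2.72% is not its background.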

How the data were processed

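Polyadenylated RNA was sequenced from 1 end with a strand-keeping kit. For each library the authors deposited raw counts, the whole number of reads on each of 17055 gene symbols, with no scaling applied. The submitters' processing notes name STAR and the rn5 build. The aligner's version, the counting program and the annotation: not given in the sources used here. Entries for reads outside genes (21.6% to 25.4% of the reads in a library) and for ambiguous reads (1.07% to 1.35%) entered neither library sizes nor tests. Groups came from the sample labels. Pairs of libraries of a group differed by more than sampling noise (chi-square per degree of freedom 3.55 or more), so none was counted as a copy.

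Each comparison of 4 libraries with 4 was fitted on its own in edgeR 4.0.16 (quasi-likelihood test, R 4.3.3), and the interaction with all 16. The filter was filterByExpr (minimum count 10, minimum total 15), libraries were scaled by TMM, and p-values were adjusted by Benjamini and Hochberg over all genes tested, with calls below 0.05. All 9 members passed this filter in every comparison. P-values measure the spread between pools. The fits were tested on simulated data. Alternatives were RLE size factors, library totals, DESeq2 1.42.0, limma-voom (limma 3.58.1), a mean CPM of at least 1, no limit on low counts, all 16 libraries in 1 fit, and each library left out. Comparisons of sepsis with control share no library between the anesthetics.

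The members and all gene lists were chosen with earlier results of these data known, and were not tested as sets. Named in the text are all members, fixed genes of each list, the called genes of each list with the largest changes (mean log2 CPM of at least 1), and, at any level, the other iron genes whose interaction passed. A gene under this rule is not reported here by name and remains in the counts. Promoter windows came from RefSeq annotation of GRCr8, which is not the build of the counts. Sequences of proteins and of iron-responsive elements are not analysed here.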

Additional observations from a re-analysis of the deposited data

Results flagged for a closer look

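Of 40 groups of 4 libraries checked for the members and Ftl, 2 held a library far from the other 3 by Dixon's criterion. That is about as many as chance gives for independent groups, but these groups share the same 16 libraries. Hamp was 220 CPM in isoflurane control library 8, where the nearest of the other isoflurane controls had 373 CPM. Hfe was 14.5 CPM in Propofol-Sepsis library 11, where the nearest other library had 14.02 CPM in a group with a very narrow range.

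The other flagged results are sepsis effects that differed between the anesthetics by the interaction test of edgeR, isoflurane minus propofol, on the log2 scale. They were Tfrc (1.26), Id3 (0.81), Jak1 (0.46), Cebpa (1.22) and Hmox1 (3.00). Each of these calls was lost in some fits with a library removed, from 2 of 16 for Jak1 to 12 of 16 for Tfrc.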

How the results depend on the processing

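Of 45 results for the members (9 genes in 5 comparisons), 23 kept their direction and their side of the threshold under every alternative, and so did 50 of 71 results for the other named genes. Ftl is in neither count. The falls of Bmp6, Hfe and Hfe2 in both arms and of Slc40a1 under propofol, and the rises of Hamp and Tfrc under isoflurane, held under every alternative that tested them; a mean CPM of at least 1 left Bmp6 out under isoflurane. The number of members called in the interaction was 1, and was 2 with DESeq2 (which added Hamp), 0 with limma-voom, 0 with no limit on low counts and 0 to 2 with a library left out. At an unadjusted p below 0.05 it was 4, with no share of all genes counted at that limit. In the comparison of controls it was 5, and was 7 with library totals and 2 with all 16 libraries in 1 fit. With a library left out it was 2 to 5 in that comparison. Between the septic groups it was 1, and was 4 with library totals, 2 with all 16 libraries in 1 fit and 0 to 2 with a library left out. The cause was not tested.

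Values near 0 that changed sign were the following, on the log2 scale, with the range over the fits that each lacked 1 library. Under propofol they were Tfrc (-0.0046 with library totals, -0.056 without library 14, to 0.14), Hamp (-0.13 without 11, to 0.23), Id1 (-0.0017 without 11, to 0.14) and Cebpa (-0.14 to 0.0063, the latter without 11). In the interaction they were Bmp6 (-0.43 to 0.090, with 0.014 without 3 and 0.090 without 4), Tf (-0.077 to 0.0047, the latter without 9), Ireb2 (-0.18 to 0.078, with 0.0075, 0.033 and 0.078 without 1, 10 and 16) and Bmpr2 (-0.042 without 3 and -0.0055 without 12, to 0.16). Between controls they were Tf (-0.0055 with library totals) and Hfe (-0.084 to 0.084, with 0.015 without 6 and 0.084 without 14). Between septic groups, with library totals, they were Tf (-0.041), Fth1 (-0.058) and Slc40a1 (-0.031).

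Over all genes, 289 passed in the interaction, beside 847 with DESeq2, 168 with no limit on low counts and 54 (without library 12) to 1615 (without library 1) with a library left out. Between controls 4468 passed, beside 2793 with all 16 libraries, and between septic groups 1982, beside 4099 with all 16 libraries and 249 to 2867 with a library left out. Library totals moved the share of calls that were higher from 48.4% to 38.3% under propofol, from 49.8% to 22.9% between controls and from 55.1% to 21.4% between septic groups, where the median over all genes was -0.16. Bmp6 rested on 4 to 79 reads per library, the fewest of the members. No paired analysis was possible because the groups share no replicate numbers.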

Other observations

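Among 8892 genes, those whose log2 level followed Hamp most closely over the 16 libraries were Ruvbl2 (Pearson's r = 0.929), Bop1 (0.875), Pkn3 (0.874), Ranbp1 (0.867) and Usf2 (0.861). With the group means removed these values were 0.718, 0.536, 0.395, 0.629 and 0.693. They are a description over libraries that fall into 4 groups, without a test. Ruvbl2 was 22.03 ± 0.893 CPM in isoflurane control, 30.5 ± 4.23 CPM in Isoflurane-Sepsis, 31.3 ± 1.41 CPM in propofol control and 33.3 ± 2.86 CPM in Propofol-Sepsis (SD, n = 4 each). Usf2, a basic helix-loop-helix transcription factor, is the neighbor of Hamp in the GRCr8 annotation and does not overlap it there.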
